A study of Mus musculus with 5 samples.

Results

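The genes described here encode 10 LIM-domain adaptors of the actin cytoskeleton, chosen by symbol from the 55335 genes counted: Csrp1, Csrp2, Fhl1, Fhl2, Fhl3, Pdlim3, Pdlim5, Pdlim7, Zyx and Tgfb1i1. All 10 were found in the table and all 10 passed the filter on low counts, among 16380 genes tested. The cells were primary lung fibroblasts isolated from mice and grown in culture, and they received vehicle (control, 2 libraries) or the cytokine TGF-β1 for 24 h at a dose of 5 ng/mL (3 libraries). No source used here gives the strain, age or sex of the mice. The series calls the replicates biologically independent but does not say whether each came from its own animal or dish, and the p-values cover only the variation among these 5 libraries, which held 34283288 to 43163967 counts.

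LIM domains are zinc-binding modules that hold proteins together, and the adaptors that carry them sit on actin stress fibres and at focal adhesions, where the fibres are anchored to the matrix. Several move between these sites and the nucleus, where they act with transcription factors such as SRF, the serum response factor that drives many contractile genes. TGF-β1 signals through SMAD proteins and turns cultured fibroblasts towards myofibroblasts, cells rich in stress fibres. The adaptors fall into the CRP family (Csrp genes), the FHL family (Fhl genes), the PDZ-LIM family (Pdlim genes) and the zyxin and paxillin relatives (Zyx and Tgfb1i1).

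With TGF-β1, 5 of the 10 adaptors were higher (Csrp2, Fhl2, Fhl3, Pdlim7 and Tgfb1i1), 3 were lower (Fhl1, Pdlim3 and Pdlim5), and Csrp1 and Zyx did not pass the test, at an adjusted p under 0.05 by edgeR's quasi-likelihood test. Over all genes tested, 44.5% were called, 21.3% higher and 23.2% lower with TGF-β1. For the 10 adaptors the median log2 fold change was 0.10, against 0.00 over all genes tested, and the median of the absolute values was 0.43 against 0.28. Only Csrp2 and Pdlim3 changed at least 2-fold, a size that 10.9% of all tested genes passed with a call, and with Fhl1 3 changed at least 1.5-fold, against 18.9%. The libraries of the 2 groups did not overlap for 9 of the 10, which was also so for 64.6% of all tested genes. A mean of at least 50 CPM was reached by 9 of the 10 adaptors, against 4090 of the 16380 genes tested. Higher counts make a call easier, and the shares of calls over all genes, here and below, were not matched for level. In bulk RNA, fewer cells of a type and less RNA per cell cannot be told apart.

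**Figure D1:**
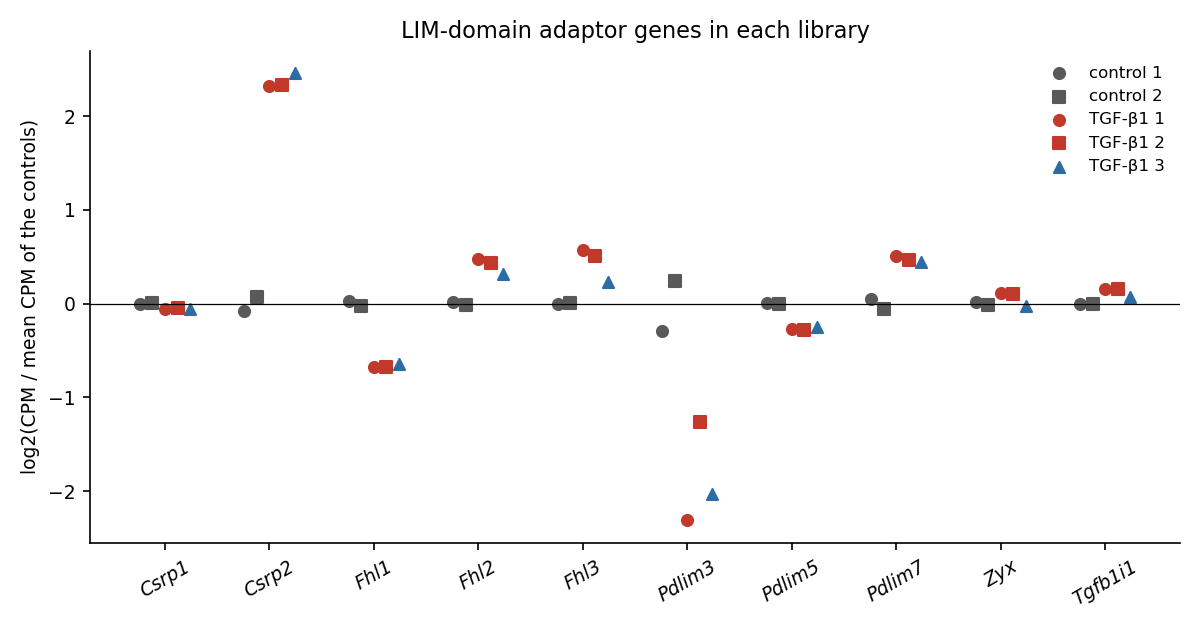
Level of each adaptor gene in each library, as the log2 of its TMM-scaled CPM over the mean of the 2 controls. Grey symbols are the controls, red symbols TGF-β1 replicates 1 and 2, and blue triangles TGF-β1 replicate 3. Csrp2 stands over 2 log2 units above the controls in all 3 TGF-β1 libraries. Replicate 3 lies below replicates 1 and 2 in Fhl2, Fhl3, Zyx, Tgfb1i1 and, by a small margin, Pdlim7.

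Csrp1 and Csrp2 encode cysteine- and glycine-rich proteins that bind α-actinin and zyxin on actin filaments. Csrp2, known from smooth muscle and lying on chromosome 10 (110919789 to 110939622 of GRCm38), had 20.3 and 22.6 CPM (counts scaled to the TMM-adjusted library total) in the controls and 107, 109 and 118 CPM with TGF-β1. Every TGF-β1 library was several times above both controls. The gene rose from 21.5 ± 1.65 (SD, n = 2) to 111 ± 6.01 CPM (SD, n = 3), with a log2 fold change of 2.37 (SE 0.069, adjusted p = 9.19e-09 by edgeR), or 5.18-fold. This was the largest increase among the 47 LIM-domain cytoskeletal genes tested, the 10 adaptors and 37 others. Csrp1, the widely expressed paralog on chromosome 1 (135720061 to 135752232), had 866 and 875 CPM in the controls and 836, 841 and 838 CPM with TGF-β1. The TGF-β1 libraries lay just below both controls, and the log2 fold change of −0.05 (95% interval −0.10 to −0.01 before adjustment for multiple tests) did not pass the edgeR test, with adjusted p = 0.0657. That change of −3.69% passed as a decrease with upper-quartile scaling, with library totals and by limma-voom (adjusted p 0.0447, 0.000321 and 0.0412).

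Because both CRP genes were counted in the same libraries, their ratio does not depend on the scaling between libraries. There were 0.0235 and 0.0259 Csrp2 counts per Csrp1 count in the controls and 0.128, 0.129 and 0.141 with TGF-β1. The log2 ratio moved from −5.34 ± 0.10 (SD, n = 2) to −2.91 ± 0.08 (SD, n = 3), a difference of 2.43 that separated the groups without overlap. The two-sided exact permutation p was 0.1, the smallest that 2 against 3 libraries allow, and 0.133 after adjustment over the 4 paralog pairs compared. Per kb of merged exons Csrp1 remained far more abundant: Csrp2 made up 2.17% ± 0.147 of the family's CPM per kb in controls (SD, n = 2) and 10.7% ± 0.512 with TGF-β1 (SD, n = 3). Csrp3, the muscle member of the family, had 0 counts in all 5 libraries.

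The FHL genes encode proteins built almost wholly of LIM domains, and their members moved in opposite directions. RefSeq promoter windows were matched for 8 of the 10 adaptors (12 start sites; none for Csrp2 and Tgfb1i1), and the sequences of the FHL genes are shown because these paralogs split and because the only CArG boxes in these windows, the sequence that SRF binds, were in Fhl1 and Fhl2. The upstream windows of Fhl2 (chr1:43163962-43164211, minus strand) and Fhl3 (chr4:124700449-124700698, plus strand) run for 250 bases up to a start site and hold no annotated exon. For Fhl1 (chrX:56779571-56779600, plus strand) the CArG box is given with 10 bases on each side. All are GRCm38.p6, 5′ to 3′ on the gene's strand, with CArG boxes and the SMAD box CAGAC (on either strand) in capitals.
Fhl2: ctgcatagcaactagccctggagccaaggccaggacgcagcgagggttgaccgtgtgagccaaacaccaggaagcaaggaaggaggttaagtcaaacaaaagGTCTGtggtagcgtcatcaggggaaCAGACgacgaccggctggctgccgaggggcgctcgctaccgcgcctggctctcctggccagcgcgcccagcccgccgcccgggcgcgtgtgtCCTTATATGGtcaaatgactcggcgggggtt
Fhl3: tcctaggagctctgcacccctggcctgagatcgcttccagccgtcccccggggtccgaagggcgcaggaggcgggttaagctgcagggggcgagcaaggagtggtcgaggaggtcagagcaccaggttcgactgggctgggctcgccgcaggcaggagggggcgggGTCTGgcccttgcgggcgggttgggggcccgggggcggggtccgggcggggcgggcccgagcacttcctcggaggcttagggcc
Fhl1: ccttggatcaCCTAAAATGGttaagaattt

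The Fhl2 box lay 31 to 22 bases before this start site, and a second Fhl2 start site had another box 96 to 87 bases upstream, inside an annotated exon of the gene. The Fhl1 box lay 102 to 93 bases upstream of one of its 2 start sites, in a window with 87 exon bases that do not reach the box. CArG boxes stood in 3 of the 12 adaptor windows, from 2 of the 8 genes, and in 1.47% of 32851 windows of that length. The shares of all windows given here leave out chromosome 18. The SMAD box CAGAC was in 6 of the 12 windows and in 42.2% of all windows. The TEAD motif GGAATG was found in Pdlim3 alone among the 8 genes searched (12.6% of all windows) and the AP-1 motif TGANTCA in Zyx alone (6.75%), with both strands searched and no overlap between motifs in these windows. These matches describe letters only. Whether any protein binds these sites, or has a part in the changes of these genes, was not tested.

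Fhl1, best known from striated muscle and its inherited myopathies, lies on chromosome X (56731787 to 56793346). It had 688 and 662 CPM in the controls and 423, 421 and 432 CPM with TGF-β1. All 3 TGF-β1 libraries lay well below both controls and close to each other. Fhl1 fell from 675 ± 18.1 (SD, n = 2) to 425 ± 5.64 CPM (SD, n = 3), with a log2 fold change of −0.67 (SE 0.027, adjusted p = 8.84e-08 by edgeR).

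Fhl2, a co-regulator of transcription that also binds integrins, lies on chromosome 1 (43123074 to 43196984). Its values were 97.9 and 95.8 CPM in the controls and 135, 131 and 120.2 CPM with TGF-β1, all 3 above the controls. Fhl2 rose by 0.41 on the log2 scale (SE 0.053, adjusted p = 0.000197 by edgeR), or 1.33-fold. Fhl3, an actin-binding member on chromosome 4 (124700701 to 124708611), had 54.4 and 55.0 CPM in the controls and 81.5, 78.0 and 64.0 CPM with TGF-β1. The groups did not overlap, and the third TGF-β1 library lay nearest to the controls. Fhl3 rose by 0.45 on the log2 scale (SE 0.091, adjusted p = 0.0033 by edgeR), or 1.36-fold. Of the 50-base words in its transcripts, 4.63% also occur in the gene Gm13898, which had 12 counts in all libraries together.

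Within libraries, there were 7.02 and 6.91 Fhl1 counts per Fhl2 count in the controls and 3.13, 3.21 and 3.59 with TGF-β1. The log2 ratio differed by −1.08 between groups that did not overlap (two-sided exact permutation p = 0.1, adjusted 0.133). The log2 ratio of Fhl3 to Fhl2 went from −0.83 ± 0.03 (SD, n = 2) to −0.80 ± 0.10 (SD, n = 3), with overlapping groups and an exact permutation p of 0.8. Per kb of merged exons, Fhl1 made up 68.4% ± 0.477 of the FHL family in controls and 50.5% ± 2.48 with TGF-β1. Over the same libraries the share of Fhl2 went from 19.2% ± 0.0844 to 29.9% ± 0.716 and that of Fhl3 from 12.2% ± 0.345 to 19.5% ± 1.76. The remaining FHL genes, Fhl4 and Fhl5, made up 0.0945% and 0.0360% of the family in controls on average.

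**Figure D2:**
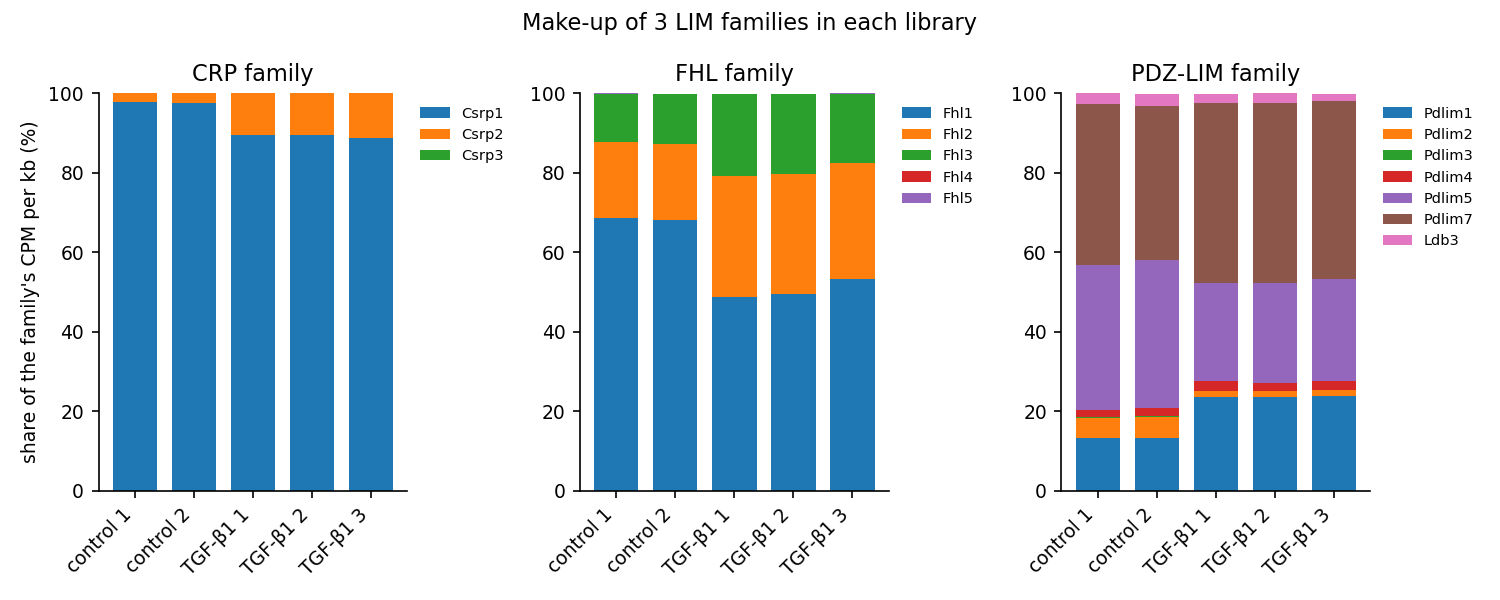
Make-up of the CRP, FHL and PDZ-LIM families in each library, as each gene's percentage of the family's summed CPM per kb of merged exons. In all 3 TGF-β1 libraries the Csrp2 share is above 10%, the Fhl1 share is between 48.7% and 53.4%, and Pdlim1 and Pdlim7 take up a larger part of the PDZ-LIM bar than in either control.

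The PDZ-LIM proteins join a PDZ domain, which docks on α-actinin, to LIM domains, and the 3 among the adaptors also diverged. Pdlim7, known as Enigma and lying on chromosome 13 (55495795 to 55513676), had 313 and 291 CPM in the controls and 429.9, 417 and 411 CPM with TGF-β1. Every TGF-β1 library was above both controls. Pdlim7 rose by 0.47 on the log2 scale (SE 0.038, adjusted p = 8.02e-06 by edgeR), or 1.39-fold. Pdlim5, known as ENH and lying on chromosome 3 (142239590 to 142395696), tethers protein kinase C in muscle. It had 516 and 511 CPM in the controls and 427, 422 and 431 CPM with TGF-β1, with no overlap. Pdlim5 fell by 0.27 on the log2 scale (SE 0.025, adjusted p = 2.48e-05 by edgeR). The counts of Pdlim7 per Pdlim5 count were 0.607 and 0.569 in the controls and 1.01, 0.987 and 0.953 with TGF-β1. This log2 ratio differed by 0.74 between groups that did not overlap (two-sided exact permutation p = 0.1, adjusted 0.133).

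Pdlim3, known as ALP and chiefly a protein of muscle Z-lines, lies on chromosome 8 (45885461 to 45919548) and was scarce. It had 43 and 74 counts in the controls and 12, 26 and 14 with TGF-β1, or 1.21 and 1.76 CPM against 0.298, 0.619 and 0.362 CPM. The groups did not overlap, but both spread widely for their level. Its log2 fold change was −1.79 (SE 0.386, 95% interval −2.66 to −0.92, adjusted p = 0.0044 by edgeR), the largest called decrease among the adaptors. Without control 2, which held the higher control level, the call was lost (log2 fold change −1.49, adjusted p = 0.0702). Pdlim1, a more abundant PDZ-LIM gene named here after its values were seen, rose from 110.0 ± 2.07 (SD, n = 2) to 239 ± 3.48 CPM (SD, n = 3), with a log2 fold change of 1.12. Pdlim2 fell from 36.4 ± 0.602 to 12.4 ± 0.726 CPM over the same libraries, with a log2 fold change of −1.55. The summed level of the 7 PDZ-LIM genes was 160 and 154 CPM per kb of merged exons in the controls and 195, 189 and 189 with TGF-β1. Family sums and shares depend on the length taken and were computed on merged exons only. By the length of its longest coding transcript, Pdlim7 alone had a mean of 158 CPM per kb in controls and 219 with TGF-β1.

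Zyxin, the product of Zyx, recruits actin-assembly factors to focal adhesions and strained stress fibres. Zyx lies on chromosome 6 (42349630 to 42360213) and had 967 and 942 CPM in the controls and 1029.6, 1028 and 940.5 CPM with TGF-β1. Replicates 1 and 2 were above both controls and replicate 3 was below both, so the groups overlapped. The log2 fold change of 0.07 (SE 0.039, 95% interval −0.02 to 0.15) did not pass the edgeR test, with adjusted p = 0.204. Without TGF-β1 replicate 3 the log2 fold change was 0.11 and passed (adjusted p = 0.00235), and with library totals it turned to −0.03 (adjusted p = 0.516). Its exons share 236 bases with Epha1 on the opposite strand, which had 0.737% as many counts.

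Tgfb1i1 encodes Hic-5, a paxillin relative of focal adhesions that was named as a transcript induced by TGF-β1. The gene lies on chromosome 7 (128246812 to 128255699) and had 255 and 254 CPM in the controls and 284, 284 and 267 CPM with TGF-β1. All 3 TGF-β1 libraries were above the controls by a small margin. Tgfb1i1 rose by 0.13 on the log2 scale (SE 0.035, adjusted p = 0.0155 by edgeR), or 1.09-fold. The call was lost with library totals (log2 fold change 0.03, adjusted p = 0.548), without control 1 (adjusted p = 0.0816) and without control 2 (adjusted p = 0.0836).

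Per kb of merged exons, Csrp1 was the most abundant adaptor in controls at 445 ± 3.37 CPM per kb (SD, n = 2), followed by Fhl1 at 182 ± 4.87 and Zyx at 177 ± 3.31, 2 neighbours whose library values overlapped. Pdlim7 (62.3 ± 3.31), Pdlim5 (57.8 ± 0.395), Fhl2 (51.1 ± 0.789), Tgfb1i1 (45.5 ± 0.0401) and Fhl3 (32.5 ± 0.273) came next in CPM per kb. Csrp2 at 9.89 ± 0.759 and Pdlim3 at 0.288 ± 0.0758 CPM per kb stood last. With TGF-β1 the order was Csrp1 (429 ± 1.31, SD, n = 3), Zyx (185 ± 9.47), Fhl1 (115 ± 1.52), Pdlim7 (86.5 ± 1.97) and Fhl2 (67.9 ± 4.05 CPM per kb). Csrp2 then reached 51.3 ± 2.77, beside Tgfb1i1 (49.8 ± 1.75) and Pdlim5 (48.1 ± 0.524), followed by Fhl3 (44.3 ± 5.50) and Pdlim3 (0.0828 ± 0.0330 CPM per kb). From Csrp2 down to Fhl3, each neighbour's library values overlapped those of the next; the other neighbours in either order, apart from Fhl1 and Zyx in controls, did not overlap. Taking the length of the longest coding transcript instead, an alternative added after seeing the data, exchanged Fhl1 with Zyx and Fhl2 with Tgfb1i1 in the control order. With TGF-β1 it put Pdlim7 above Fhl1 and Pdlim5 above Fhl2, and Csrp2 ranked 7 in place of 6.

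**Figure D3:**
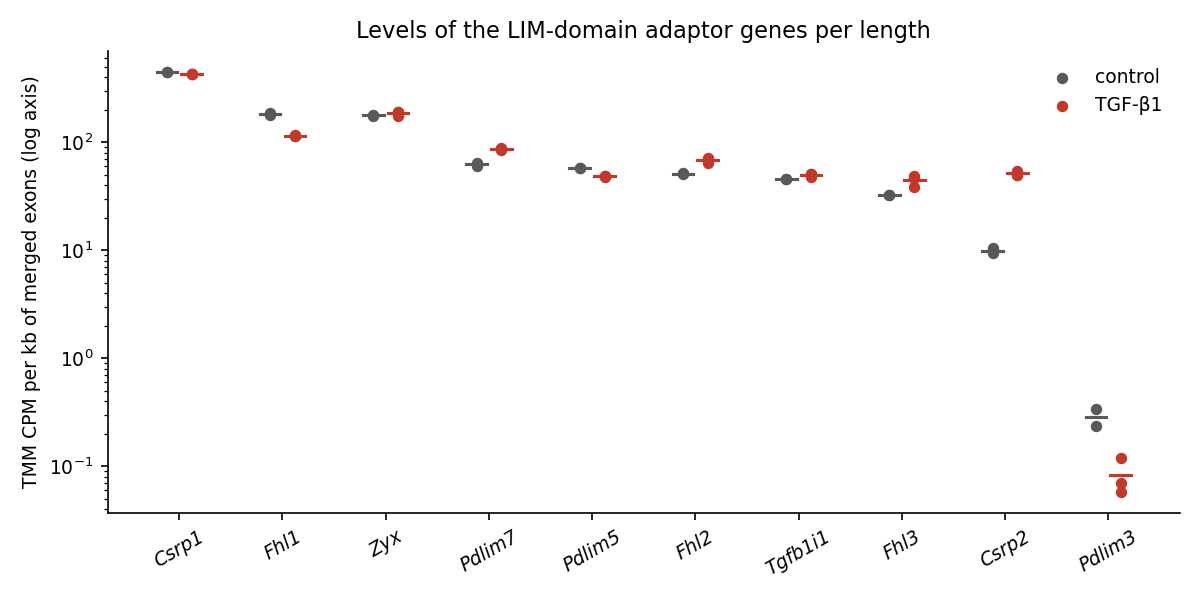
Levels of the adaptor genes as TMM-scaled CPM per kb of merged exons on a log axis, with 1 point per library and a line at each group's mean, grey for control and red for TGF-β1. Genes run in the order of their control level, from Csrp1 at 445 to Pdlim3 at 0.288 CPM per kb. Csrp2 moves from well below Fhl3 to a level beside Tgfb1i1.

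TGF-β1 replicate 3 differed from replicates 1 and 2 in part of the adaptors. Relative to the mean of those libraries in log2 CPM, the difference was −0.32 in Fhl3, −0.15 in Fhl2, −0.13 in Zyx and −0.09 in Tgfb1i1. It was 0.13 in Csrp2, −0.23 in the scarce Pdlim3, and between −0.04 and 0.03 in Csrp1, Fhl1, Pdlim5 and Pdlim7. Among the 4090 genes with a mean of at least 50 CPM, the median of this difference was 0.007, with the 5th and 95th percentiles at −0.14 and 0.15. A value as low as that of Fhl3 was seen in 0.880% of these genes, and one as low as that of Fhl2 in 4.65%. For Zyx and Tgfb1i1 these shares were 5.92% and 11.3%. Replicate 3 lay below both other TGF-β1 libraries in 5 of the 9 adaptors at that level, against 35.3% of these genes. Without replicate 3, the log2 fold changes were 0.54 for Fhl3, 0.46 for Fhl2 and 0.16 for Tgfb1i1, and edgeR called 6 adaptors up and 3 down, beside 22.4% up and 24.0% down among the 16173 genes tested without it.

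The other LIM-domain cytoskeletal genes, a list of 40, had 37 members that could be tested. Among those 37, edgeR called 9 up (24.3%) and 16 down (43.2%), against 21.3% and 23.2% of all genes tested. It left 12 uncalled, and the median log2 fold change was −0.16 against 0.00 over all genes tested. Limch1, an activator of nonmuscle myosin, fell from 27.2 ± 0.842 (SD, n = 2) to 1.58 ± 0.198 CPM (SD, n = 3), with a log2 fold change of −4.10. Ablim1, an actin-binding LIM protein, fell from 28.8 ± 0.0101 to 3.92 ± 0.441 CPM, with a log2 fold change of −2.87. The third gene by the naming rule was Pdlim2, given above. Lpp and Trip6, the closest relatives of zyxin, and Pxn, encoding paxillin, are named here after their values were seen. Lpp fell by 0.43 and Trip6 fell by 0.28 on the log2 scale, while Pxn rose by 0.19. With library totals the list's median was −0.26, where that of all genes tested was −0.10.

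**Figure D4:**
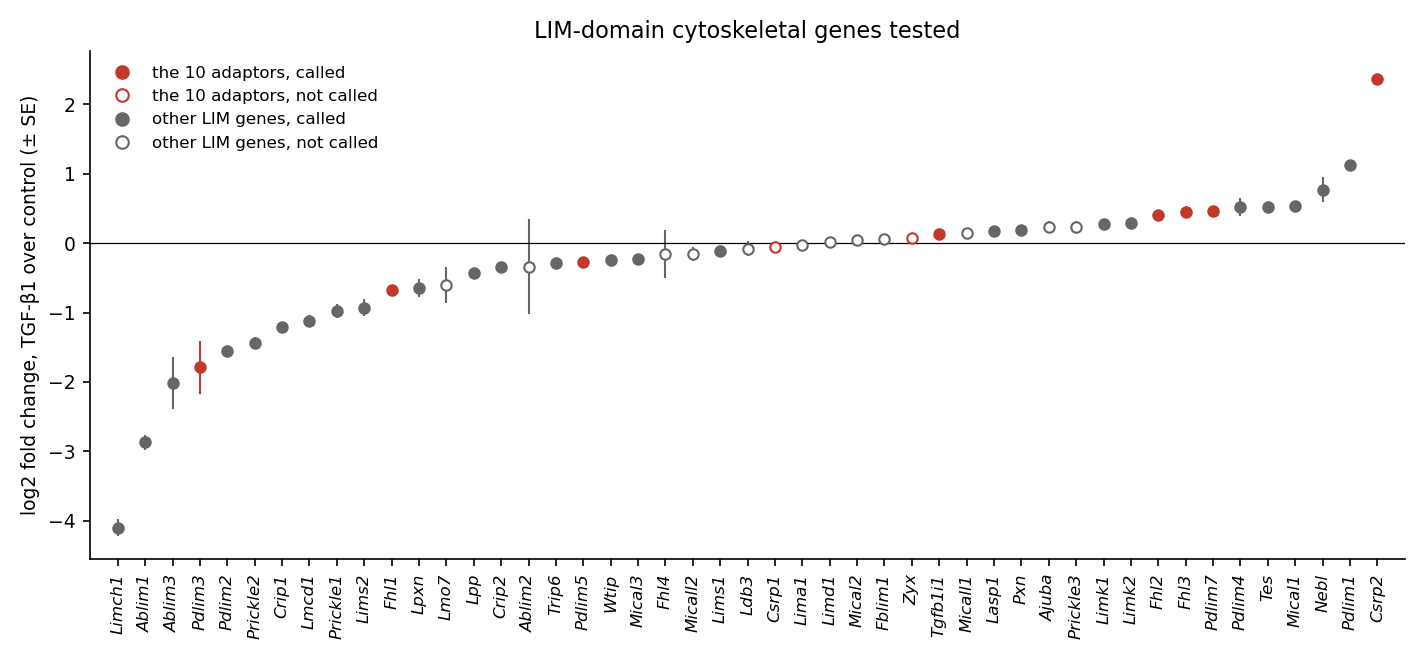
Log2 fold change (TGF-β1 over control, ± SE from edgeR's test) of the 47 LIM-domain cytoskeletal genes tested, in order of size. Red marks the 10 adaptors, grey the 37 other genes, and filled symbols those with an adjusted p under 0.05. The scale runs from Limch1 at −4.10 to Csrp2 at 2.37, with most adaptors between −0.67 and 0.47.

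The genes for focal adhesion and stress fibre proteins that work with these adaptors had 34 members that could be tested. Of these, edgeR called 17 up (50%) and 7 down (20.6%), against 21.3% and 23.2% of all genes tested. It left 10 uncalled, with a median log2 fold change of 0.12. Tln2, encoding the integrin-activating protein talin 2, rose from 32.7 ± 1.10 (SD, n = 2) to 106 ± 1.65 CPM (SD, n = 3), a log2 fold change of 1.70. Enah, an actin-assembly factor that zyxin recruits, rose from 103 ± 2.62 to 216 ± 0.868 CPM, a log2 fold change of 1.07. Actn1 encodes an α-actinin, the type of protein to which CRP, PDZ-LIM and zyxin proteins bind, Actn4 another α-actinin, and Vcl vinculin. All are named after their values were seen. Actn1 rose by 0.39, while Actn4 fell by 0.12 and Vcl fell by 0.48 on the log2 scale. With library totals, 14 genes of this list were higher and 11 lower, and its median was 0.02.

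SRF, its MRTF cofactors and their contractile targets split. Among 24 tested, edgeR called 10 up (41.7%) and 8 down (33.3%), against 21.3% and 23.2% of all genes tested. It left 6 uncalled, with a median of −0.01, or −0.11 with library totals. Mylk, the myosin light chain kinase gene, fell from 426 ± 5.30 (SD, n = 2) to 177 ± 4.30 CPM (SD, n = 3), a log2 fold change of −1.27. Myh9, encoding a nonmuscle myosin, went up by 0.81 on the log2 scale, with 1876 ± 32.9 CPM in controls and 3295 ± 22.1 CPM after TGF-β1. Tagln2, a transgelin, went up by 0.75, with 491 ± 4.86 CPM in controls and 828 ± 21.1 CPM after TGF-β1. Srf itself, named after its values were seen, had a log2 fold change of 0.16 that did not pass (adjusted p = 0.0774 by edgeR).

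In the list of TGF-β signalling genes and early targets, edgeR called 16 of 20 up (80%) and 3 down (15%). Over all genes tested these shares were 21.3% and 23.2%. In the list 1 gene was uncalled, and the median was 0.66. Pmepa1, a feedback inhibitor of SMAD signalling, rose from 264 ± 4.10 (SD, n = 2) to 799 ± 19.6 CPM (SD, n = 3), a log2 fold change of 1.60. Tgfbi, a secreted matrix protein, rose from 28.4 ± 0.0356 to 81.0 ± 4.59 CPM, a log2 fold change of 1.51.

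Genes with profiles most like the extremes were taken by the smallest Euclidean distance between log2 CPM profiles over the 5 libraries, each centred on its mean. For Csrp2, the largest called increase, the nearest of 10927 genes with a mean of at least 5 CPM were Tmeff1 (distance 0.139), Abcb1a (0.179) and Ctla2a (0.214). Tmeff1 rose from 41.9 ± 0.607 (SD, n = 2) to 216 ± 0.515 CPM (SD, n = 3), a log2 fold change of 2.36. For Pdlim3, the largest called decrease, the nearest were Fam213a (0.583), Ppm1l (0.596) and Atoh8 (0.600), all at a larger distance than the 3 above. Pdlim3 itself had only 12 to 74 counts a library, under the level asked of the other genes, and its counting error enters these distances. Each distance rests on 5 libraries in 2 groups and is a description.

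Markers of the labelled cell type were present: the 9 fibroblast markers, 4 higher and 5 lower with TGF-β1, summed to 26140 to 27148 CPM in the controls and 33270 to 33535 CPM with TGF-β1, with Lum alone under 1 CPM in all libraries. Among single markers named after their values were seen, Col1a1 had 9996 to 10443 CPM in the controls and 16435 to 16566 CPM with TGF-β1, and Pdgfra had 173 to 180.3 against 42.7 to 45.2 CPM. The 8 smooth muscle markers, 6 of them lower with TGF-β1 and none higher, summed to 3850 to 3962 CPM in the controls and 2945 to 2978 CPM with TGF-β1. The 12 striated muscle markers, 2 higher and none lower, summed to 10.9 to 11.5 CPM in the controls and 81.5 to 86.3 CPM with TGF-β1. Most of that sum was Acta1, named after its values were seen, at 8.49 to 9.13 against 76.5 to 81.3 CPM, while 9 of the 12 were under 1 CPM in every library and Myh7, Myl2 and Csrp3 were at 0. The 10 mesothelial markers, 9 of them lower, summed to 1432 to 1521 CPM in the controls and 202 to 220 CPM with TGF-β1. The 7 leukocyte markers, 4 lower and 1 higher, summed to 2144 to 2217 against 1250 to 1274 CPM. Lyz2, named after its values were seen, made up most of that sum, at 1960 to 2029 against 1128 to 1150 CPM. The marker that was higher was Ptprc, found across leukocytes, at 25.4 to 27.3 against 31.5 to 32.9 CPM. The 6 pericyte markers, 1 higher and 2 lower, summed to 25.7 to 27.0 against 60.0 to 64.1 CPM. The rise in that sum was that of Cspg4, at 3.99 to 4.64 against 46.1 to 50.1 CPM. Notch3, Kcnj8 and Abcc9 lay below both controls in every TGF-β1 library, Rgs5 overlapped between groups, and Higd1b was at 0. These pericyte genes are also named after their values were seen. Summed levels of the 6 epithelial and 6 endothelial markers were under 5 CPM in every library. The part of these other cell types in the changes of the adaptors was not tested.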

How the data were processed

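RNA was measured by strand-specific polyA mRNA sequencing of 2 control and 3 TGF-β1 libraries. The authors deposited unscaled whole-number counts per Ensembl gene. STAR 2.5.3a, StringTie 1.3.1c and mm10 are named in the submitters' processing notes without their roles. No source used here gives the counting tool, its strand setting or the annotation release.

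Columns were assigned by sample title. The 55335 gene IDs were matched to GENCODE M21 (GRCm38), which named 55154. Library totals were 34283288 to 43163967 counts, so counting error is small for every adaptor except Pdlim3. Genes were filtered with filterByExpr, scaled with TMM and tested with edgeR's quasi-likelihood test with group as the only term. Tests were two-sided, and p-values were adjusted by Benjamini-Hochberg over 16380 genes, with a threshold of 0.05. Standard errors were the absolute log2 fold change over the square root of F. The fit was also run on simulated data, with far fewer changed genes than were called here. That run is not used as support for the calls. Log2 ratios of paralogs used a prior count of 0.5 and log2 CPM a prior count of 2. Paralog ratios were compared by exact permutation, whose smallest p is 0.1.

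Alternatives changed the scaling (library totals, upper quartile, median of ratios), the filter (none, or over 1 CPM in 2 libraries) or the test (DESeq2, limma-voom), added a replicate block, or dropped 1 library. A length alternative was added after seeing the data. The members and lists were chosen with earlier results of these data known. Named genes were all 10 members, the 3 largest called changes of each of the 4 lists at a mean of at least 5 CPM, and the 3 genes with the profile nearest to the largest called increase and decrease. Of these, 2 list genes are not reported here. Promoter sequences are RefSeq's for GRCm38.p6. Fits used edgeR 4.0.16, DESeq2 1.42.0 and limma 3.58.1 under R 4.3.3. Summaries and plots used numpy 2.4.6, pandas 2.3.3 and matplotlib 3.10.9 under Python 3.11.15.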

Additional observations from a re-analysis of the deposited data

How the results depend on the processing

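Of 130 alternative values for the 10 adaptors, 120 kept their direction and their side of the threshold. The log2 fold change of Csrp1 passed as a decrease at −0.06 with upper-quartile scaling, −0.15 with library totals and −0.05 by limma-voom. That of Zyx turned to −0.03 with library totals and passed at 0.11 with the replicate number as a block, and that of Tgfb1i1 lost its call at 0.03 with library totals. Leaving out 1 library gave log2 fold changes of −2.16 to −1.49 for Pdlim3, 0.05 to 0.11 for Zyx and 0.12 to 0.16 for Tgfb1i1. With 1 control left, its spread is taken from the TGF-β1 libraries. The difference in the log2 ratio of Fhl3 to Fhl2 was 0.03, and −0.00 to 0.09 with 1 library left out (−0.00 without TGF-β1 replicate 1). Over all genes, library totals shifted the median log2 fold change to −0.10 and gave 2325 higher calls in place of 3488, so that 32.1% of calls were higher in place of 47.9%; with them 11 focal adhesion partners were lower in place of 7. The cause of these changes was not tested.

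Replicate numbers are shared by control and TGF-β1 libraries 1 and 2, but nothing says that they mark a common source, and the deviations of same-numbered libraries correlated at 0.0189. With the replicate block, 6 adaptors were higher and 3 lower, beside 3538 and 3727 of the 16380 genes tested. That fit takes replicate 3 as a level of its own and so estimates the change without it. Counts limit only Pdlim3, which had 12 to 74 counts a library.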
